A study of Mus musculus with 9 samples.

Results

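The soleus, a postural muscle of the calf, was compared with 3 other hindlimb muscles: the rectus femoris of the front of the thigh, the tibialis anterior of the shin and the gastrocnemius of the calf. The comparison uses 1 soleus array and 1 array for each of the other 3 muscles, 4 of the 9 arrays in the series. Those 9 arrays hold total RNA from 9 skeletal muscles of adult male C57BL/6J mice, aged 12 weeks, with no genetic change or treatment in any of them. The other 5 muscles are the masseter and digastric of the jaw, the trapezius and supraspinatus of the shoulder and the triceps of the forelimb. The series as a whole concerns Hox genes and the body position that muscles keep in their gene expression. Each value is the deposited log2 expression value of a probe set on a whole-transcript microarray. The labels do not say whether RNA of several animals was pooled for an array. With 1 array per muscle there is no replicate, so no difference below carries a test, and having so few arrays limits how precise any value can be.

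Skeletal muscle fibres are either slow or fast, and each kind builds its sarcomere, the contractile unit, from its own isoforms of myosin, troponin and tropomyosin. Slow fibres contract for long periods, burn fatty acids in many mitochondria and return calcium to its store with a slow pump, whereas fast fibres rely more on glycogen and glycolysis and carry more of the calcium buffer parvalbumin. In mice the soleus is the limb muscle best known for slow fibres, mixed with fast fibres of the oxidative kind. In RNA of whole muscle, fewer fibres or cells of one kind and less RNA in each of them cannot be told apart.

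For each gene the position of the soleus was described by its gap, the distance from the soleus value to the nearest of the other 3 values when the soleus lies outside their range. A gap of 1 on the log2 scale is a 2-fold distance. The values are on arrays of unequal spread: the SD over all 41345 probe sets was 2.08 in soleus and 2.04 in tibialis anterior, but 1.95 in rectus femoris and 1.92 in gastrocnemius, while the array medians lay between 3.34 and 3.44 in all 9. Every group of genes was therefore also set against the tibialis anterior alone, and those values are given for part of the groups. The label was checked against slow and fast fibre genes, of which 1 of each kind is given here and the rest below. Not every fast gene differed: the fast troponins were near the other muscles, and the fast myosin gene Myh1 lay inside their range. Myh7, the slow myosin heavy chain, read 11.62 in soleus, 5.49 in rectus femoris, 4.35 in tibialis anterior and 8.53 in gastrocnemius, and Myh4, the heavy chain of the fastest fibres, read 8.85 in soleus and 12.95, 12.94 and 12.94 in the other 3 in the same order.

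Of 22180 genes measured by a probe set of their own, 233 (1.05%) had a soleus value at least 1 above the highest of the other 3 muscles and 95 (0.428%) had one at least 1 below the lowest. The soleus lay above the range by any amount for 5362 genes (24.2%) and below it for 6857 (30.9%). Against the tibialis anterior alone, 351 genes (1.58%) were at least 1 higher in soleus and 282 (1.27%) at least 1 lower. All 233 and all 95 genes are among these by construction, and the remaining 118 higher and 187 lower genes did not clear the rectus femoris or the gastrocnemius value, or both, by 1. The balance of higher and lower genes changed with the scale of the arrays. Higher genes made up 71.0% of the 328 genes as deposited, 60.5% after quantile normalization (181 higher, 118 lower), 60.1% after scaling the arrays to the same SD (178 higher, 118 lower) and 55.5% against the tibialis anterior alone.

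The position of the soleus also varied with a gene's level, so the counts in the gene groups below are read beside the level of their genes. Among genes with a mean value under 3 over the 4 arrays, the soleus lay above the range for 8.87% and below it for 41.7%. Among genes with a mean from 7 to 9 it lay above for 45.1% and below for 20.9%, and the shares with a gap of at least 1 were 3.11% and 2.35%. Set against the tibialis anterior alone, the soleus was the higher of the pair for 40.5% of the dimmest genes and 53.0% of those from 7 to 9. By array pairs, 633 genes differed by at least 1 between soleus and tibialis anterior, 1674 between soleus and rectus femoris and 1964 between soleus and gastrocnemius. The gastrocnemius and rectus femoris differed at 389 genes, the fewest of the 6 pairs.

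The sequences in front of a pair of myosin genes, one from each direction, are shown because slow and fast myosins are among the largest gaps. Myl3 encodes the slow ventricular-type essential light chain and read 10.39 in soleus, 4.69 in rectus femoris, 4.54 in tibialis anterior and 6.70 in gastrocnemius. Myh4 had the opposite pattern, given above. The 250 bases before each RefSeq start site on GRCm38.p6 are printed 5′ to 3′ on the gene's own strand, at chr9:110763428-110763677 (plus strand) for Myl3 and chr11:67237562-67237811 (plus strand) for Myh4. Capitals mark matches on either strand to the MCAT motif CATTCC, the TATA box TATAAA, the E-box CAGCTG, the MEF2 motif and the CArG box, all of which are motifs known from muscle promoters.
Myl3: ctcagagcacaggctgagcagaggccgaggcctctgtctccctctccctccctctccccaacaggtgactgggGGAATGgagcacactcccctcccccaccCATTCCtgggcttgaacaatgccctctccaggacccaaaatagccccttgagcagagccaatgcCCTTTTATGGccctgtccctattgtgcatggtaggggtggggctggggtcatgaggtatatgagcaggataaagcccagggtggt
Myh4: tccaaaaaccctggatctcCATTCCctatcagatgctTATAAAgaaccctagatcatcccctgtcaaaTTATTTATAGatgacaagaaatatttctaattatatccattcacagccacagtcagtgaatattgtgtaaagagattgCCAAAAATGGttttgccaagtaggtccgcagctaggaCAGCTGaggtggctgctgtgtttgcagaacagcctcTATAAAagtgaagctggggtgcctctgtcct
The Myl3 window holds 2 MCAT matches, the second on the strand shown and the first on the other, and 1 CArG box. The Myh4 window holds 1 MCAT match, 3 TATA box matches, 1 MEF2 motif that overlaps the middle TATA match, 1 CArG box and 1 E-box. A match describes these letters and does not show a bound site.

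Such motifs were counted over all windows of 250 bases before to 50 after a start site. Windows were found for 171 of the 233 genes with a soleus gap of at least 1 above (244 windows), 73 of the 95 below (95 windows) and 16990 of all genes (20611 windows). The MEF2 motif was in 6.15% of the windows of the higher genes, 4.21% of those of the lower genes and 2.64% of all windows. For the CArG box the shares were 3.69%, 5.26% and 1.45%. The E-box CAGCTG was in 21.7%, 17.9% and 16.2%, and the MCAT motif CATTCC in 14.3%, 9.47% and 13.5% of them. The estrogen-related receptor element AAGGTCA was in 0.82%, 3.16% and 4.07%, the NFAT core GGAAAA in 21.3%, 11.6% and 22.4%, and the TATA box in 11.9%, 10.5% and 12.3%. These shares describe the windows and were not tested.

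Genes of the slow sarcomere were 12 of the 25 genes named above the range. The members of this group, and of every group below, were chosen with earlier results of these data known. Their counts are therefore not independent of the values. Of 16 measured genes of this group, 15 lay above the range of the other 3 muscles, all 15 by at least 1, where 1.05% of all genes did. That share was 2.01% among genes with a mean from 5 to 7 and 3.16% among those of 9 or more. The median difference from the mean of the other 3 was 4.10 for the group and −0.05 for all genes, and 3.84 against the tibialis anterior alone, where all genes had −0.01. Soleus was the highest of all 9 muscles for 14 of the 16. The count of 15 was unchanged after quantile normalization and was 14 after scaling to the same SD, where the gap of Actn2, an actin anchor of the Z-disc, came to 0.83.

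The 3 slow troponin subunits, which switch the thin filament on with calcium, had similar gaps. Tnni1, the inhibitory subunit, read 9.89 in soleus, 4.21 in rectus femoris, 4.24 in tibialis anterior and 5.54 in gastrocnemius, a gap of 4.35 or 20.4-fold. For Tnnt1, the subunit that binds tropomyosin, the values were 10.54, 5.87, 5.03 and 6.43 in the same order, a gap of 4.11 (17.3-fold). Tnnc1, which binds the calcium, read 10.94, 5.10, 4.60 and 6.90, a gap of 4.04 (16.4-fold). In all 3 the gastrocnemius was the nearest hindlimb muscle, and no other muscle came within 1 of the soleus: the trapezius, the next highest of all 9, read 6.46 for Tnni1, 7.27 for Tnnt1 and 7.42 for Tnnc1. Tpm3, the slow tropomyosin, read 9.79 in soleus and 5.05, 5.21 and 5.99 in the others, a gap of 3.80. A second probe set of Tpm3 had a gap of 1.18, and the average of its probe sets had one of 2.88.

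Among the myosins, Myh7 had the widest spread in the other muscles, a range of 4.18 from tibialis anterior to gastrocnemius, so its gap of 3.09 (8.54-fold) was smaller than its difference of 7.28 from the tibialis anterior. Myl2, the regulatory light chain of slow and cardiac muscle, read 8.87, 4.20, 4.28 and 5.51, and Myl6b, a slow essential light chain, 8.46, 3.98, 4.97 and 4.46. Their gaps of 3.36 and 3.49 are close to the 3.69 of Myl3. Myh7b, a slow-type heavy chain, reached only 5.79 in soleus against 3.68, 3.78 and 3.96, a gap of 1.84. Mhrt, an RNA transcribed from the Myh7 locus on the opposite strand, read 7.46 in soleus and 3.95 to 4.48 in the other 3, and whether its probes also read Myh7 RNA was not tested.

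The Z-disc and M-band genes of the group followed. Myoz2, a calcineurin-binding protein of the slow Z-disc, read 11.23 in soleus, 4.71 in rectus femoris, 7.85 in tibialis anterior and 7.26 in gastrocnemius, a gap of 3.38. Myom3, an M-band protein, read 9.38 against 5.20, 5.20 and 6.08. Lmod2, which caps and lengthens thin filaments, had a smaller gap of 1.68 because the tibialis anterior read 8.57. Mybpc1, the slow myosin-binding protein C, was the exception of the group: it read 11.49 in soleus and 11.51 in tibialis anterior, with 9.78 in rectus femoris and 9.57 in gastrocnemius, so the soleus lay inside the range.

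**Figure D1:**
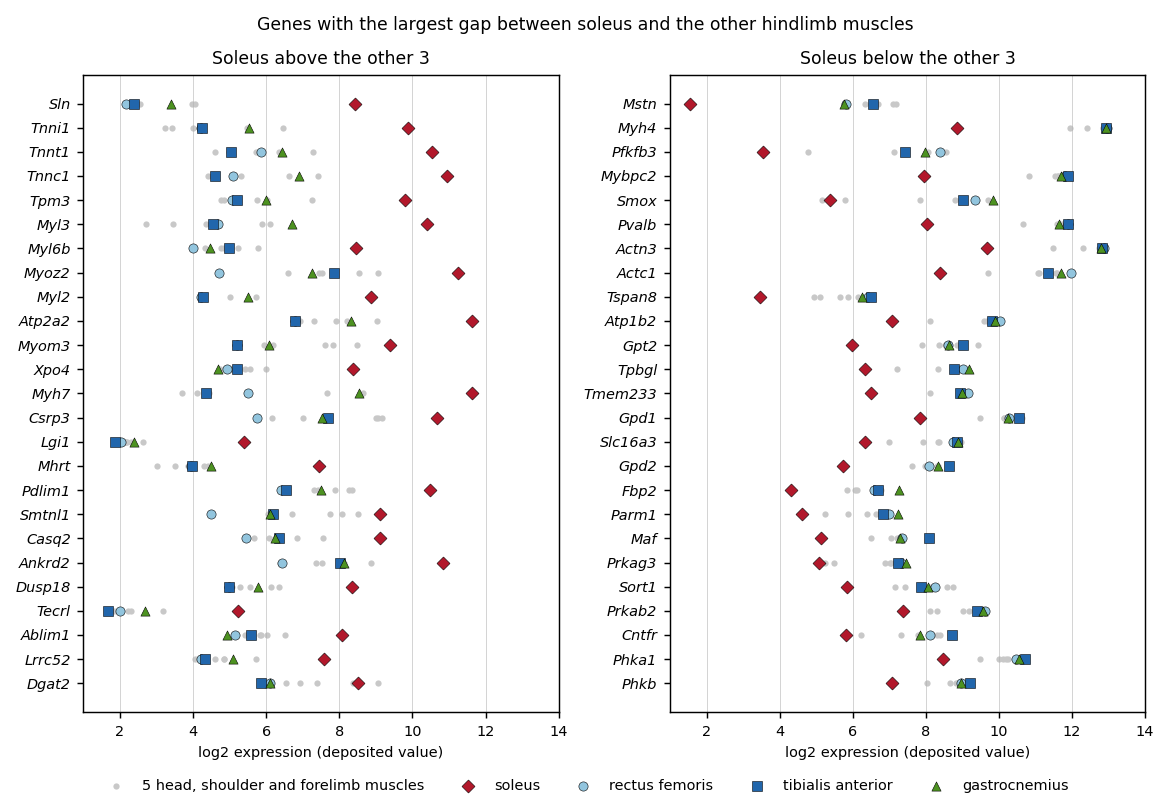
Deposited log2 value (x axis) of the 25 genes with the largest soleus gap above the other 3 hindlimb muscles (left) and the 25 with the largest gap below them (right), 1 point per muscle array. Soleus (red diamonds) stands apart from the 3 other hindlimb muscles in every row, from Sln (8.44 against at most 3.39) to Dgat2 on the left and from Mstn (1.56 against at least 5.76) to Phkb on the right, and grey points show the 5 muscles of the head, shoulder and forelimb.

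Fast sarcomere genes divided into a few with large differences and many with small ones. Of 16 measured, 14 lay below the range of the other 3, where 30.9% of all genes did. Of these, 6 did so by at least 1, against 0.428% of all genes. Among genes with a mean of 9 or more, near the level of this group, the shares were 23.5% and 4.21%. The median difference of the group from the mean of the 3 was −0.97. Against the tibialis anterior the median was −1.03, with 8 genes at least 1 lower. The 6 genes became 7 after quantile normalization and 9 after scaling to the same SD.

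Myh4 had the largest gap of them, −4.08, a 17.0-fold distance, with the other 3 muscles within 0.01 of each other. Mybpc2, the fast myosin-binding protein C, read 7.95 in soleus and 11.81, 11.88 and 11.69 in the others, and Actn3, the fast alpha-actinin of the Z-disc, read 9.68 against 12.87, 12.83 and 12.80. Mylk4, a myosin light chain kinase, read 7.06 against 9.14, 10.54 and 8.91. Myom2, an M-band protein, and Mylk2, the light chain kinase of skeletal muscle, completed the 6 with gaps of −1.80 and −1.21. By contrast the fast troponins were near the other muscles: the gap was −0.24 for Tnni2, −0.10 for Tnnt3 and −0.14 for Tnnc2. These values lie near the top of the arrays' scale, where the highest value of any array was 13.49, and compression of differences there was not tested.

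The 3 adult fast myosin heavy chains differed in direction. Myh2, the heavy chain of oxidative fast fibres, was higher in soleus, 11.62 against 7.70 in rectus femoris, 9.15 in tibialis anterior and 10.08 in gastrocnemius. Its gap of 1.54 was 0.98 after scaling to the same SD. Myh1, the intermediate fast heavy chain, read 11.41 in soleus, between 11.22 in gastrocnemius and 12.36 in tibialis anterior, and Myh4 was lower. The myosin heavy chain genes are similar in sequence, and cross-reading by their probes was not tested.

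Calcium handling showed the same contrast between isoforms. Sln encodes sarcolipin, a small membrane protein that inhibits the calcium pump, and it read 8.44 in soleus against 2.16 in rectus femoris, 2.38 in tibialis anterior and 3.39 in gastrocnemius, a gap of 5.05. The other 3 values lie at or below the array medians, where probe sets were not shown to be above background, so no fold is given and its place among the gaps is uncertain. Across all 9 muscles the next value was 4.05, in trapezius. Atp2a2, the slow calcium pump, read 11.62, 6.79, 6.79 and 8.31, a gap of 3.32, and Casq2, the calsequestrin that stores calcium in slow and cardiac muscle, read 9.11, 5.45, 6.35 and 6.23, a gap of 2.76. Pln, phospholamban, another inhibitor of the pump, was low on every array and had a gap of 0.54 (4.47 in soleus, 3.93 in tibialis anterior). Of the 7 measured genes of slow-type calcium handling, 5 lay above the range, 3 of them by at least 1, also after quantile normalization and after scaling to the same SD. Hrc and Camk2d lay inside it. Among all genes with a mean from 5 to 7, near the level of this group, 42.4% lay above the range and 2.01% did so by at least 1.

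Of 12 genes of fast-type calcium handling, 10 lay below the range and none above, and the median difference was −0.65, both from the mean of the 3 and from the tibialis anterior. Among all genes with a mean of 9 or more, near the level of this group, 23.5% lay below and 44.9% above. The share below by at least 1 was 4.21%. Pvalb, the calcium buffer parvalbumin, read 8.03 in soleus against 11.88, 11.89 and 11.64, a gap of −3.61 (12.2-fold). Camk2a, a calcium-dependent kinase, was the only other with a gap past 1, at −1.18. Atp2a1, the fast calcium pump, had a gap of −0.44 (12.26 against at least 12.69) and Casq1, the fast calsequestrin, −0.65. Ryr1, the calcium release channel, read 11.30 and lay inside the range of 11.25 to 11.33. One further gene of this group passed 1 after quantile normalization and 2 did after scaling to the same SD.

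Regulators of fibre type went in both directions: of 25 measured, 7 lay above the range and 10 below, and 4 and 5 did so by at least 1. Among all genes with a mean from 5 to 7, near the level of this group, 42.4% lay above and 17.6% below. The shares by at least 1 were 2.01% and 0.612%. Mstn encodes myostatin, a secreted inhibitor of muscle growth, and it read 1.56 in soleus, 5.80 in rectus femoris, 6.56 in tibialis anterior and 5.76 in gastrocnemius, a gap of −4.20. The other 5 muscles read 5.75 to 7.19, so the soleus array was the single low one of the 9, at a level among the dimmest genes of the array, so no fold is given. Maf, a transcription factor known for the fastest fibres, read 5.13 against 7.35, 8.08 and 7.29. Its gap of −2.17 was −1.72 on the average of its probe sets. Bhlhe41, a repressor, read 4.73 against 6.61, 6.39 and 6.52. Eya4, a cofactor of homeobox factors, had a gap of −1.34 and Mafa, related to Maf, one of −1.16.

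Prox1, a homeobox factor known for slow muscle, was the highest of the regulators relative to the other muscles, 6.57 in soleus against 4.36, 4.08 and 4.02, a gap of 2.21. Rcan1, an inhibitor and target of calcineurin signalling, read 9.82 against 8.33, 7.73 and 8.18. Vgll2, a cofactor of TEAD factors, had a gap of 1.12 and Tead1, the TEAD factor that binds the MCAT motif, one of 1.04. Scaling to the same SD brought both under 1, at 0.99 and 0.91. Several factors known to act on fibre type stayed near the other muscles: Nfatc1 (7.37 against 7.28 to 7.55), Mef2d (8.76 against 8.49 to 8.79) and Mef2a (7.96 against 7.74 to 8.41) all lay inside the range. Sox6, a repressor of slow genes, was 0.16 below the lowest of the 3.

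**Figure D2:**
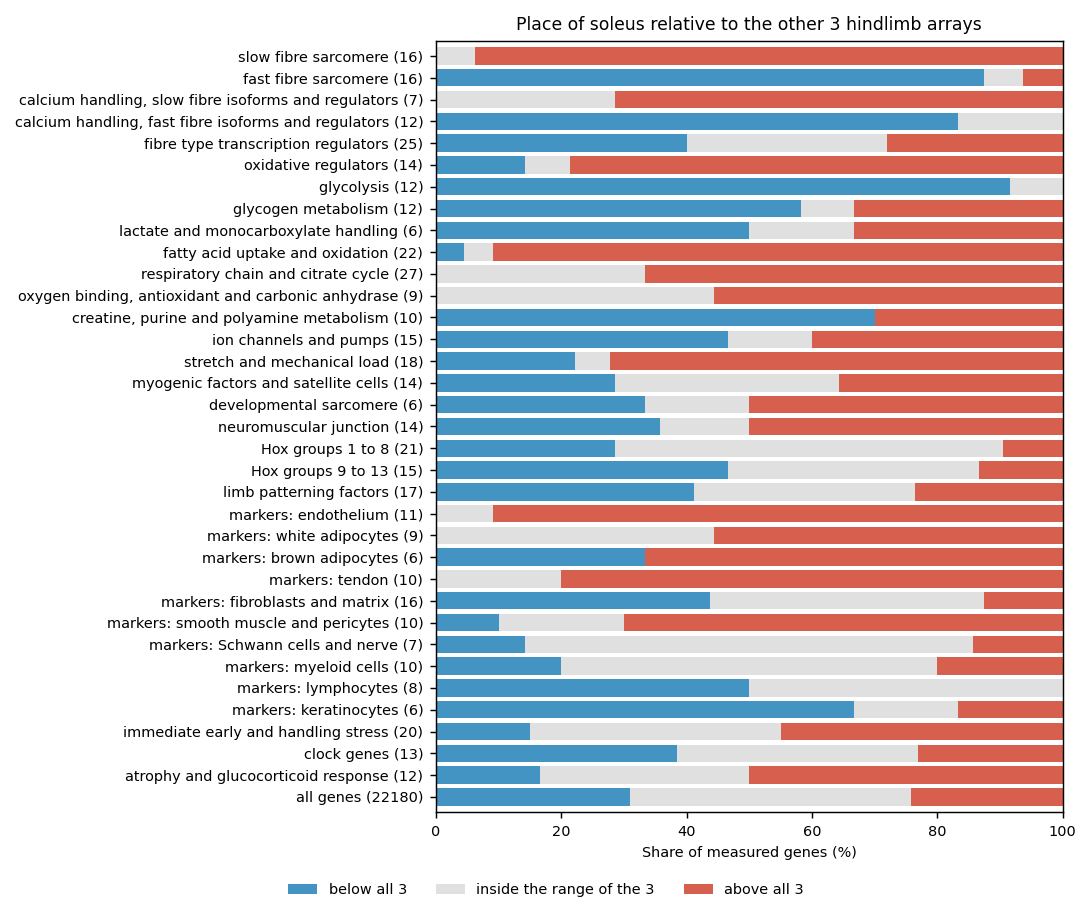
Share (x axis, percent) of the measured genes of each group that lie above all 3 other hindlimb muscles (red), inside their range (grey) or below all 3 (blue) in soleus, with the number of measured genes in brackets and all 22180 genes in the bottom bar. The slow sarcomere bar is red for 15 of 16 genes and the glycolysis bar blue for 11 of 12, while over all genes 24.2% were above and 30.9% below.

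Fuel use divided by pathway. In glycolysis, 11 of 12 measured genes lay below the range and none above, 4 of them by at least 1, with a median difference of −0.90 from the mean of the 3 and −1.02 from the tibialis anterior. Among all genes with a mean of 9 or more, 23.5% lay below the range and 4.21% did so by at least 1. Pfkfb3 makes the compound that activates phosphofructokinase, and it read 3.54 in soleus, 8.39 in rectus femoris, 7.42 in tibialis anterior and 7.97 in gastrocnemius, a gap of −3.88. Its soleus value lies near the array median, so no fold is given. The digastric, at 4.77, was the next lowest of the 9 muscles. Gpd1, the glycerol phosphate dehydrogenase of the cytosol, read 7.83 against 10.28, 10.56 and 10.24, and its mitochondrial partner Gpd2 5.72 against 8.08, 8.64 and 8.34. Fbp2, the muscle fructose bisphosphatase, read 4.32 against 6.58, 6.69 and 7.26. The enzymes of the pathway itself differed less, from a gap of −0.24 for Gapdh to −1.09 for Pgk1, and Hk2, which phosphorylates incoming glucose, lay inside the range. The 4 genes became 5 after quantile normalization and 7 after scaling to the same SD.

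In glycogen metabolism 4 of the 12 measured genes lay above the range, none by 1, and 7 below, 4 by at least 1. Among all genes with a mean from 7 to 9, near the level of this group, 45.1% lay above and 20.9% below. The share below by at least 1 was 2.35%. Phosphorylase kinase, which switches glycogen breakdown on, was lower in all 3 measured subunits: Phka1 read 8.46 against 10.46, 10.70 and 10.54, Phkb 7.09 against 8.97, 9.20 and 8.96, and Phkg1 7.99 against 9.57, 9.64 and 9.52. Stbd1, a glycogen-binding protein, had a gap of −1.24, and Pygm, muscle glycogen phosphorylase, one of −0.83. Ppp1r3a, which targets a phosphatase to glycogen, read 6.70 against 7.19, 8.36 and 6.88. On the other side Gys1, glycogen synthase, read 10.58 against 10.05 to 10.28, and Gyg, glycogenin, 10.59 against 9.80 to 10.19, both less than 1 above the range. Prkag3 and Prkab2, subunits of the energy sensor AMPK, read 5.08 and 7.37 in soleus and at least 7.24 and 9.40 in the other 3.

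Genes of lactate handling went in both directions: of 6 measured, 2 lay above the range and 3 below, 1 each way by at least 1. The median difference was −0.09 from the mean of the 3 and −0.01 from the tibialis anterior. Among all genes with a mean from 7 to 9, near the level of this group, 45.1% lay above and 20.9% below. Ldhb, the lactate dehydrogenase subunit of oxidative tissue, read 9.63 in soleus, 6.45 in rectus femoris, 6.76 in tibialis anterior and 7.35 in gastrocnemius, a gap of 2.28. Ldha, the subunit of glycolytic tissue, was 0.53 below the lowest of the 3. Slc16a3, a lactate exporter, read 6.34 against 8.73, 8.85 and 8.88, a gap of −2.39, whereas Slc16a1, a monocarboxylate transporter of oxidative fibres, read 7.91 against 5.74, 6.95 and 6.73, a gap of 0.97.

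Genes of fatty acid uptake and oxidation were higher as a group. Of 22 measured, 20 lay above the range, 7 of them by at least 1, and the median difference was 1.28 from the mean of the 3 and 0.87 from the tibialis anterior. Among genes with a mean from 7 to 9 the share above the range was 45.1%. Acaa2, the thiolase of the last step of beta-oxidation, had the largest gap, 1.48 (9.50 against 7.35, 8.02 and 7.86). Slc25a20, the carnitine carrier of the mitochondrial membrane, read 8.60 against 6.59, 7.25 and 6.93, and Lpl, the lipase that frees fatty acids from lipoproteins, 10.08 against 7.99, 8.17 and 8.81. Hadh, Slc27a1, Hadhb and Etfb had gaps from 1.02 to 1.24. The 7 genes became 5 after quantile normalization and 3 after scaling to the same SD, and 20 of 22 lay above the range in both. Fabp3, the muscle fatty acid-binding protein, lay inside the range at 6.74. Ucp3, an uncoupling protein, read 7.36, and the lowest of the other 3 was 7.41. Dgat2, which completes triglyceride synthesis, read 8.52 against 6.11, 5.87 and 6.10, but the trapezius was higher at 9.06.

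Respiratory chain and citrate cycle genes differed from rectus femoris and gastrocnemius more than from the tibialis anterior. Of 27 measured, 18 lay above the range and none below, but only 1 by at least 1. Among all genes with a mean of 9 or more, near the level of this group, 44.9% lay above. The median difference of the group, 0.43 from the mean of the 3, was 0.13 from the tibialis anterior. After scaling the arrays to the same SD, 8 of the 27 lay above the range and 2 below. The exception was Idh2, the NADP-dependent isocitrate dehydrogenase of mitochondria, which read 11.24 in soleus, 7.86 in rectus femoris, 7.50 in tibialis anterior and 8.86 in gastrocnemius, a gap of 2.38. Its counterpart in the citrate cycle, Idh3a, read 9.26, lower than the tibialis anterior at 10.04. Cs, citrate synthase, read 10.70 in soleus and 10.61 in tibialis anterior, and Cycs, cytochrome c, 10.69 and 10.67.

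Of 14 regulators of oxidative metabolism, 11 lay above the range and 2 below, 4 above by at least 1, where 1.05% of all genes did. Among all genes with a mean from 5 to 7, near the level of this group, 42.4% lay above and 17.6% below. The share above by at least 1 was 2.01%. The median difference of the group was 0.50 from the mean of the 3 and 0.24 from the tibialis anterior. Ppargc1a, the coactivator of mitochondrial biogenesis, read 8.92 against 6.18, 7.13 and 6.72, a gap of 1.80. Esrrg and Esrrb, estrogen-related receptors, read 6.46 against 4.30, 4.73 and 4.86 and 5.25 against 3.91, 3.80 and 3.96. Ppara, the nuclear receptor for fatty acids, read 7.15 against 4.89, 5.40 and 5.73. These 4 also passed 1 after quantile normalization and after scaling to the same SD. Esrra, the related receptor best known for mitochondrial genes, had a gap of 0.08. Mb, the oxygen store myoglobin, was 0.74 above the range, and Cat, catalase, was 1.16 above it and the only 1 of 9 genes of oxygen binding and antioxidant defence past 1. Among all genes with a mean from 7 to 9, near the level of these 9 genes, 3.11% lay above by at least 1.

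**Figure D3:**
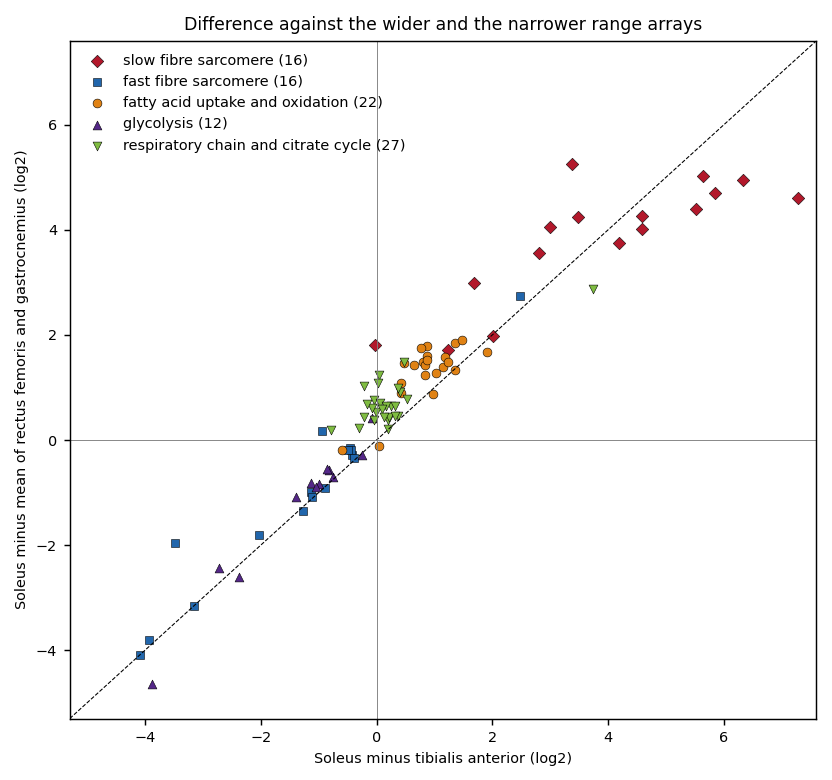
Soleus minus tibialis anterior (x axis, log2) against soleus minus the mean of rectus femoris and gastrocnemius (y axis, log2), 1 point per measured gene of 5 groups, with equality on the dashed line. Slow and fast sarcomere, fatty acid and glycolysis genes have the same sign on both axes except Mybpc1, Myh1, Hk2 and Fabp3, whereas respiratory chain and citrate cycle genes, median 0.13 on the x axis, sit around 0 there and mostly above 0 on the y axis, with Idh2 apart at the upper right.

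Of 10 genes of creatine, purine and polyamine metabolism, 3 lay above the range and 7 below, 1 in each direction by at least 1, with a median difference of −0.35 from the mean of the 3 and −0.34 from the tibialis anterior. Smox, spermine oxidase of polyamine breakdown, read 5.38 in soleus, 9.35 in rectus femoris, 9.02 in tibialis anterior and 9.84 in gastrocnemius, a gap of −3.64. The jaw muscles were as low, 5.17 in digastric and 5.78 in masseter, so soleus was not the lowest of the 9. Gpt2, a mitochondrial alanine aminotransferase, read 5.99 against at least 8.62, and Ampd3, an AMP deaminase, 7.44 against at most 5.70. Of 15 ion channels and pumps, 6 lay above and 7 below the range. Among all genes with a mean from 7 to 9, near the levels of both groups, 45.1% lay above and 20.9% below. Atp1b2, a beta subunit of the sodium pump, read 7.08 against 10.04, 9.82 and 9.89, and Atp1b1, another beta subunit of that pump, read 10.47 against 7.41, 9.49 and 8.34. Kcnc4, a voltage-gated potassium channel, was 1.47 below the range. Kcnma1, the calcium-activated potassium channel, had a gap of 1.73 on the probe set used and 0.68 on the average of its probe sets.

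Of 18 genes tied to stretch and mechanical load, 13 lay above the range and 4 below, 7 above by at least 1. Among all genes with a mean from 7 to 9, near the level of this group, 45.1% lay above and 20.9% below. The share above by at least 1 was 3.11%. Csrp3, a muscle LIM protein, read 10.68 against 5.74, 7.68 and 7.53, and Ankrd2, an ankyrin repeat protein of the sarcomere, 10.84 against 6.42, 8.03 and 8.14; both also belong to the slow sarcomere group. Hspb7, Fhl2, Fhl1, Cryab and Xirp1 had gaps between 1.05 and 1.54, and Cryab and Xirp1 were under 1 after quantile normalization. Ankrd1, the relative of Ankrd2 induced by injury, lay inside the range at 5.96. The heat shock genes Hspa1a and Hspa1b read 7.78 against at most 5.52 and 6.26 against at most 4.76. These 2 genes are nearly identical, so their probes may read each other's RNA. They were the only 2 of 20 genes of immediate early and handling stress with a gap of at least 1, and Fos read 5.06, inside the range. Among all genes with a mean from 5 to 7, near the level of these 20 genes, 2.01% lay above by at least 1 and 0.612% below.

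In the developmental sarcomere group, Actc1, cardiac alpha-actin, read 8.39 in soleus against 11.97, 11.34 and 11.70, a gap of −2.95, and Tnnt2, the cardiac troponin T, had a gap of 0.85. Among 14 myogenic and satellite cell genes, Myod1, the myogenic factor known to be higher in fast muscle, was 1.18 below the range, and Myog, known for slow muscle, was 0.39 below it. Chrna1 and Ncam1 were 1.02 above the range, and both were under 1 after quantile normalization. Pax7, the satellite cell factor, read 4.68, inside the range. Of 14 genes of the neuromuscular junction, 7 lay above and 5 below. Among all genes with a mean from 5 to 7, near the level of this group, 42.4% lay above and 17.6% below. Musk, the kinase that clusters acetylcholine receptors, had a gap of 1.24, or 0.96 after quantile normalization.

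Hox genes and limb patterning factors, which mark position along the body and limb in the embryo, had small gaps. Among 21 measured Hox genes of groups 1 to 8, 2 lay above the range and 6 below, and among 15 of groups 9 to 13 the counts were 2 and 7. None of them had a gap of 1 in either direction, as was the case for all 17 limb patterning factors. Among all genes with a mean under 3, 0.182% lay above by at least 1 and 0.028% below. Among those from 3 to 5 the shares were 0.793% and 0.22%, so finding none is near what all genes of such levels show. Against the tibialis anterior alone, the soleus was higher for 12 of the 21, 6 of the 15 and 7 of the 17. The median differences of the Hox groups from it were 0.03 and −0.16. Hoxa10 read 3.95 in soleus, 4.17 in rectus femoris, 4.02 in tibialis anterior and 4.43 in gastrocnemius, 0.08 below the lowest, and Hoxc10, the brightest of the Hox genes here, read 7.07, between 6.85 and 7.84. Most Hox values lay under 5, among levels at which the soleus was below the range for 31.9% to 41.7% of genes.

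Markers of other cells in the muscles were checked as whole lists. Among genes with a mean from 5 to 7, near the levels of the endothelial, tendon and smooth muscle lists, 42.4% lay above the range. The share above by at least 1 was 2.01%. Endothelial genes had 10 of 11 above the range, none by 1, and a median difference of 0.76 from the mean of the 3 and 0.33 from the tibialis anterior. Their mean level was 6.82 in soleus, 5.84 in rectus femoris, 6.49 in tibialis anterior and 6.01 in gastrocnemius. Tendon genes lay above in 8 of 10, 3 by at least 1: Chad, a cartilage matrix protein, read 8.13 against at most 6.51, Comp 6.84 against at most 5.58 and Tnmd, tenomodulin, 6.89 against at most 5.75. The gap of Comp, a cartilage matrix protein too, was 0.98 after quantile normalization, which left 2 of the 3 past 1. The mean of the tendon list was 6.71 in soleus and 5.79 to 5.97 in the others. Smooth muscle and pericyte genes lay above in 7 of 10, none by 1.

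White adipocyte genes lay above in 5 of 9, none by 1, and Adipoq, the defining adipokine, read 4.03, inside the range of 3.46 to 4.34. Brown adipocyte genes lay above in 4 of 6 and below in 2, with Ppara alone past 1 and a median difference of 0.72, and Ucp1, the defining gene of brown fat, read 2.19 in soleus and at most 2.47 in the others. Fibroblast and matrix genes lay above in 2 of 16 and below in 7. Myeloid genes lay above in 2 of 10 and below in 2, lymphocyte genes in 0 and 4 of 8, Schwann cell genes in 1 and 1 of 7 and keratinocyte genes in 1 and 4 of 6, none of them by 1. The lymphocyte and keratinocyte lists averaged 3.29 and 2.98 in soleus. The soleus lay below the range for 41.7% of all genes under 3 and 31.9% of those from 3 to 5. The fibroblast list averaged 8.04, and 20.9% of genes from 7 to 9 lay below. Against the tibialis anterior alone, soleus was higher for 8 of 9 white adipocyte, 8 of 10 myeloid, 6 of 16 fibroblast, 2 of 8 lymphocyte and 1 of 6 keratinocyte genes. Whether the higher endothelial, tendon and smooth muscle markers play a part in any other difference was not tested. Clock genes lay above in 3 and below in 5 of 13, and atrophy and glucocorticoid response genes in 6 and 2 of 12, none by 1. Among all genes with a mean from 5 to 7, near the levels of both lists, 42.4% lay above and 17.6% below.

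The largest gaps included genes outside these groups. Above the range, Xpo4, a nuclear transport receptor, read 8.36 in soleus against 4.93, 5.21 and 4.69, a gap of 3.15, and soleus was the single high array of all 9, where the next value was 5.99. Pdlim1, a PDZ and LIM protein of the actin cytoskeleton, read 10.47 against at most 7.50, and Smtnl1, a smoothelin-like protein, 9.11 against at most 6.18. Ablim1, an actin-binding LIM protein, read 8.08 against at most 5.57 and Dusp18, a dual-specificity phosphatase, 8.34 against at most 5.77. Lgi1, a secreted leucine-rich protein, read 5.39 against at most 2.39. Tecrl and Lrrc52 completed the 25 with gaps of 2.56 and 2.48, and Lgi1 and Tecrl were low in every other muscle, at most 2.64 and 3.17.

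Below the range, Tspan8, a tetraspanin of the cell surface, read 3.46 in soleus against 6.41, 6.51 and 6.26. Cntfr, the receptor for ciliary neurotrophic factor, read 5.82 against 8.11, 8.70 and 7.84. Tpbgl and Tmem233 had the same gap of −2.45, and Parm1, a mucin-like membrane protein, had one of −2.20. Sort1, the sorting receptor sortilin, had a gap of −2.03 on the probe set used and −0.96 on the average of its probe sets, so it is uncertain. Of the 25 genes named above the range, soleus was the highest of all 9 muscles for 24, all but Dgat2, and of the 25 below it was the lowest for 24, all but Smox.

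Across all 9 muscles, soleus was the highest for 207 of the 233 genes and at least 1 above each of the 8 others for 97. It was the lowest for 85 of the 95 and at least 1 below each of the 8 for 33. For the 233 higher genes the highest of the 8 other arrays was the digastric for 87, the trapezius for 60 and the masseter for 43. For the 95 lower genes the lowest of the 8 was the digastric for 61. These counts include the genes for which that array passed the soleus. The mean of the slow sarcomere genes was 10.15 in soleus, 7.74 in trapezius and 5.71 to 6.94 in the other 7. For glycolysis the soleus had 8.74 and the digastric 9.33, with 9.85 to 10.10 elsewhere. For fatty acid genes the 2 nearest, digastric at 8.75 and trapezius at 8.74, were close to the soleus at 8.80.

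**Figure D4:**
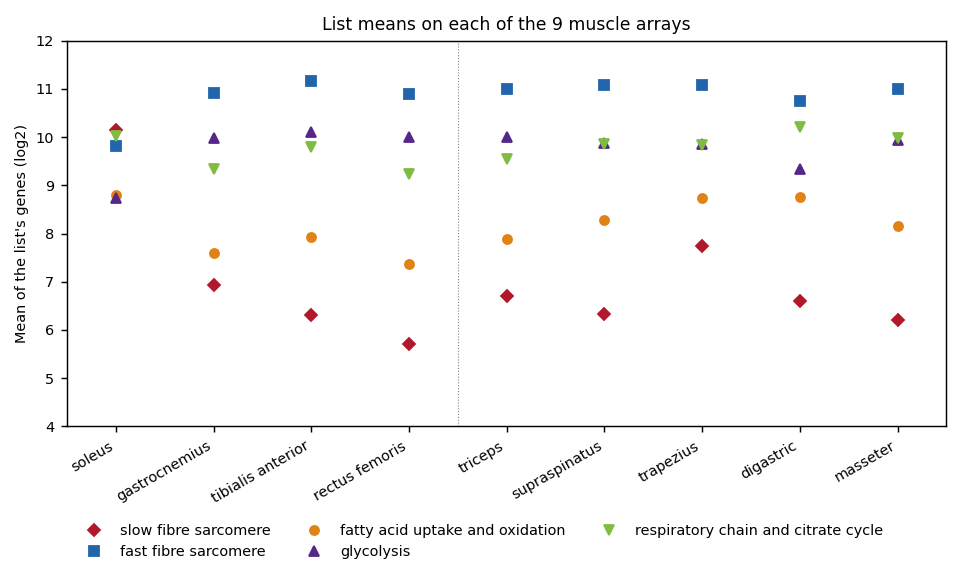
Mean log2 value (y axis) of the genes of 5 groups on each of the 9 muscle arrays (x axis), hindlimb muscles left of the dotted line; levels can be compared between muscles within a group but not between groups. The slow sarcomere mean is highest in soleus at 10.15 and next in trapezius at 7.74, the glycolysis mean is lowest in soleus at 8.74, and the respiratory chain mean in soleus, 10.03, lies below the digastric at 10.21.

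Precursors of microRNAs, the short RNAs that silence messages through their seed bases, were also on the array. Of 484 microRNA genes, 10 (2.07%) had a soleus value at least 1 above the other 3 and 0 at least 1 below, and their median value in soleus was 2.28. The share above was 1.05% over all genes, and 0.182% among genes with a mean under 3. It was 0.793% among those from 3 to 5 and 2.01% from 5 to 7. Some of the 10, such as Mir23b and Mir27a, had a mean above 3, so the share under 3 does not apply to all of them. MicroRNA genes fall outside the rule for named genes and the following were chosen after their values were seen. Mir208b, which lies within the Myh7 gene, read 4.32 in soleus, 1.08 in rectus femoris, 1.16 in tibialis anterior and 1.54 in gastrocnemius, a gap of 2.77, and no more than 1.66 in any other muscle. Whether its probes read the unspliced Myh7 RNA was not tested. Mir208a, its relative at the cardiac myosin gene Myh6, read 1.47 and Mir206 1.18, both inside the range. Mir29a read 3.67 against at most 1.46, Mir133b 5.06 against at most 3.03 and Mir27a 5.66 against 4.38 in each of the other 3. The Mir27a value was identical on those 3 arrays, and why was not tested. On them Mir208b, Mir29a and Mir133b lay under the array medians, where probe sets were not shown to be above background. Mir1a-1, a muscle microRNA, read 5.53 against at most 4.04, but the masseter read 5.84. Mir23b read 6.74 against at most 5.38.

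The mature sequences show which of these share a seed, and the low relative Mir208a is given for comparison. They are from RefSeq on GRCm38.p6, 5′ to 3′, with the seed, bases 2 to 8, in capitals.
miR-208b-3p: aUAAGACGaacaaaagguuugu
miR-208a-3p: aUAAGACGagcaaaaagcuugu
miR-133b-3p: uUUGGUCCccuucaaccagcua
miR-29a-3p: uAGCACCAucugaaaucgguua
miR-27a-3p: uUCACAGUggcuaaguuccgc
They lie at chr14:54975710-54975731 (minus strand) for miR-208b-3p, chr14:54949072-54949093 (minus) for miR-208a-3p, chr1:20682834-20682855 (plus) for miR-133b-3p, chr6:31062673-31062694 (minus) for miR-29a-3p and chr8:84208727-84208747 (plus) for miR-27a-3p. The miR-208 pair share the seed UAAGACG and 19 of 22 positions, although only Mir208b was higher in soleus, and the other 3 have a seed of their own. The arrays measured RNA of the hairpin genes, and the mature microRNAs were not measured.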

How the data were processed

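Total RNA of frozen muscle was hybridised to whole-transcript mouse arrays, 1 per muscle. The deposited values are log2 expression values of 41345 probe sets, with GCRMA named in the submitters' processing notes; its version and the genome build are not given in the sources used here. Probe sets were named from the platform annotation: 23521 had 1 gene, 1814 several and 16010 none. For a gene with several probe sets, the brightest on average across all 9 arrays stood for it, leaving 22180 genes. The soleus gap was computed to the highest and to the lowest of the other 3 hindlimb arrays (Python 3.11.15, pandas 2.3.3). Genes were named by a rule: the 25 largest gaps in each direction of at least 1, with soleus (above) or all other 3 (below) at 5 or more, without predicted, clone-named or microRNA genes, plus any member of the lists. Members and the 34 gene lists (446 of 485 entries measured, the rest not analysed here) were chosen with earlier results of these data known. Alternatives were other scalings, a filter on dim genes, averaged probe sets, other muscle sets and other gaps. The replicate number is 1 for every muscle, and no test was possible.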

Additional observations from a re-analysis of the deposited data

Results flagged for a closer look

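Among 17824 probe sets that name no gene or several, which the gene counts do not use, 491 (2.75%) had a soleus value at least 1 above the other 3 hindlimb muscles and 70 (0.393%) had one at least 1 below. Of the 491, 177 had a soleus value of 5 or more, and of the 70, 26 had all other 3 muscles at 5 or more. These were picked out as signal in data outside the gene comparison, and what they measure was not tested.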

How the results depend on the processing

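With 1 array per muscle, no value has an error. The 233 higher and 95 lower genes became 790 and 253 without the tibialis anterior, 351 and 282 against it alone, and 97 and 33 against all 8 other arrays. With a 1.5-fold gap they were 757 and 375, and with a 4-fold gap 46 and 24. Counts by any amount became 10510 above and 11279 below against the tibialis anterior alone and 2557 and 2817 against all 8, and 2440 below after the filter on dim genes. The fast sarcomere median was −1.28 with arrays scaled to the same SD. Of the 233 higher genes, 180 passed after quantile normalization and 177 after scaling to the same SD, and of the 95 lower genes 93 and 92. Against all 8 arrays, the gap of Dgat2 turned to −0.54 and that of Smox to 0.21, and 39 of the 50 named genes kept a gap of 1. No paired analysis was possible because each muscle has 1 array and no test was run.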
